A study of Mus musculus with 8 samples.

Results

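The 10 genes described here belong to fibroblast growth factor (FGF) signalling in the embryonic heart: the ligands Fgf9 and Fgf16, the receptors Fgfr1 and Fgfr2, the Sprouty genes Spry1, Spry2 and Spry4, the transcription factors Etv4 and Etv5, and the phosphatase Dusp6. They were taken by gene symbol from a table of 23846 gene entries, in which each of the 10 had 1 entry. RNA-seq compared hearts in which Ogt, the X-linked gene for the enzyme that attaches O-GlcNAc to proteins, was deleted with hearts of littermate controls, and the question here is whether the FGF pathway genes differed with that deletion. The cKO embryos carried a floxed Ogt allele on their single X chromosome (Ogt f/y) and TnT-Cre, a Cre driven by the troponin T promoter in cardiomyocytes. Controls were littermates titled OGTWT, and their genotype field says only control. All hearts were whole hearts at embryonic day 11.5, with a strain background labelled B6 (the study's methods describe a mixed background), and each group had 4 libraries. Neither the labels nor the methods give the number of hearts in a library, so the p-values below measure the spread between libraries. Endothelial, epicardial and blood cells in these hearts keep an intact Ogt gene, and in whole-heart RNA fewer cells of a type cannot be told apart from less RNA per cell.

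FGF ligands bind receptor tyrosine kinases together with heparan sulfate chains, and the activated receptor signals through adaptors and RAS to the kinases RAF, MEK and ERK. Among the genes that this signal turns on are those of its own inhibitors, the Sprouty proteins and the phosphatase DUSP6, and those of the ETS factors ETV4 and ETV5, so that their RNA is commonly read as an output of the pathway. In the mouse heart at midgestation FGF9 and FGF16 from the epicardium and endocardium act on FGFR1 and FGFR2 of the myocardium and favour its proliferation.

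The deposited values are FPKM, which scale the fragments of a gene to its transcript length and to the library's mapped fragments, so levels of different genes can be set side by side per length. The entries with a mean of at least 1 FPKM, 12629 in all and including 9 of the 10 genes, entered a limma fit of log2(FPKM + 0.5), and calls were made at p under 0.05 after Benjamini-Hochberg adjustment over all of them. Fold changes below are cKO minus control on that scale, which understates the change of low genes. Ogt was 37.5 to 46.2 FPKM in the control and 20.1 to 24.7 FPKM in the cKO libraries. Estimated from the smallest FPKM steps, depth was 1.00 to 1.22 times that of control 1 among the controls and 1.12 to 1.25 times among the cKO libraries. The 12 cardiomyocyte markers summed to 27900 to 34600 FPKM in the control and 29100 to 32600 FPKM in the cKO libraries. Of 12 epicardial markers 7 were higher, 0 lower and 5 not called in cKO hearts, their sum going from 211 to 232 FPKM to 268 to 305 FPKM. The list was uneven: picked with their values in view, Krt19 went from a mean of 47.7 to 78.9 FPKM and Tbx18 was 18.7 FPKM in both groups. Of 12 endothelial and endocardial markers 0 were higher, 8 lower and 4 not called, their sum going from 401 to 439 FPKM to 346 to 370 FPKM. Over all entries tested, 15.9% were called higher and 14.9% lower. No marker of either list was at 0, and the part of these cell types in any difference below was not tested. A single library stood apart by liver genes: cKO 3 held 35.2 FPKM of Afp and 8.44 FPKM of Alb, against at most 0.15 FPKM in the other libraries, so the called genes are also given without it.

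Of the 9 FGF pathway genes tested, 2 were higher in cKO hearts (Fgf9 and Spry1), 1 was lower (Etv4) and 6 were not called. Over all entries tested, 15.9% were called higher, 14.9% lower and 30.7% in either direction, so 3 of 9 is near the share of the whole table. For the same 3 genes the 4 cKO libraries did not overlap the 4 control libraries, which held for 32.8% of all entries tested. The median difference of the 9 genes was 0.03 on the log2 scale, against 0.02 over all entries.

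**Figure D1:**
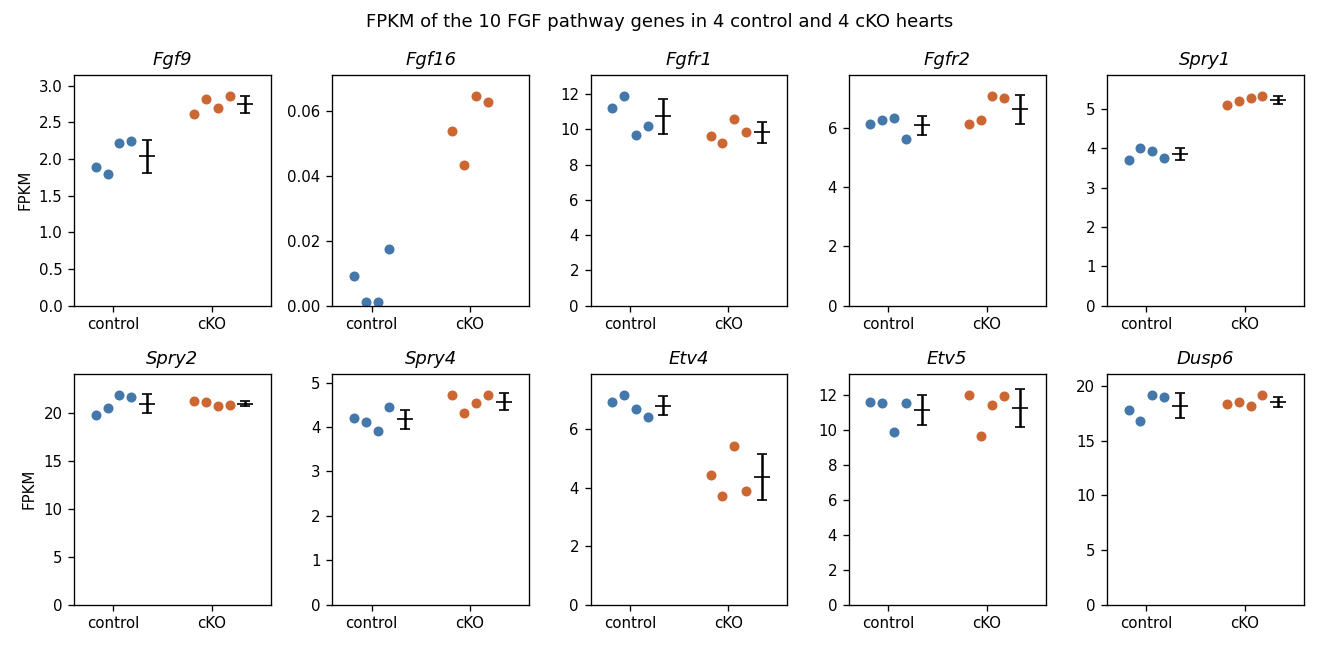
FPKM (vertical axes, each starting at 0) of the 10 FGF pathway genes in 4 control (blue) and 4 cKO (orange) libraries, 1 dot per library, with the mean and SD of each group beside the dots except for Fgf16, which is listed at the lowest table value in 2 libraries. Every cKO library lies above every control library for Fgf9, Fgf16 and Spry1 and below every control library for Etv4, and the groups overlap for the other 6 genes.

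Fgf9, a secreted ligand of the epicardium and endocardium, rose in cKO hearts. It lies on chromosome 14 of mm10 (chr14:58072686-58112720 in the deposited table). Fgf9 was 1.89, 1.80, 2.22 and 2.24 FPKM in controls 1 to 4 and 2.61, 2.82, 2.69 and 2.86 FPKM in cKO 1 to 4. The controls formed a lower pair (1 and 2) and a higher pair (3 and 4), and all cKO libraries were above both pairs. The mean went from 2.04 ± 0.228 to 2.75 ± 0.116 FPKM (SD, n = 4 each), a log2 difference of 0.36 (standard error 0.08, adjusted p = 0.0087 from limma). With cKO 3 left out the difference was 0.36, at an adjusted p of 0.0204 from limma. The library descriptions carry a pair of prefixes of unstated meaning, although the value columns all carry the same one. Controls 1 and 2 and cKO 1 carry the first prefix and the other libraries the second, so the control pairs follow the prefixes. Within the first prefix (1 cKO against 2 control libraries) the difference was 0.41 and within the second (3 against 2) it was 0.27. With the latter 5 libraries alone Fgf9 was not called (adjusted p = 0.0793 from limma). With the prefix as a covariate the difference was 0.32 and Fgf9 was called (adjusted p = 0.00622 from limma).

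Fgf16, an X-linked ligand of the same subfamily as Fgf9, was close to the detection limit of these libraries (chrX:105764477-105776532). It was listed at 0.00905, 0.001, 0.001 and 0.0174 FPKM in controls 1 to 4 and at 0.0538, 0.0435, 0.0647 and 0.0629 FPKM in cKO 1 to 4, where 0.001 is the lowest value of the table. The groups did not overlap, and a two-sided exact permutation test of the FPKM gave p = 0.0286, the lowest possible with 4 against 4. Such separation was seen for 11.1% of the entries under the 1 FPKM minimum that were above 0.001 FPKM in at least 1 library. If the value of control 1 stands for 1 fragment, the 8 values fall on whole steps of 1, 0, 0 and 2 fragments in controls and 7, 6, 8 and 8 fragments in cKO libraries. The groups then hold 3 and 29 fragments, a depth-adjusted ratio of 8.97 (95% interval 2.78 to 46, which covers counting error only). With no minimum level, a fit in which 15.5% of 23521 entries of all levels were called, Fgf16 was called as well (log2 difference 0.13, adjusted p = 0.00307 from limma). The share called in that fit among entries under the minimum alone was not computed. All 8 libraries held Y-linked RNA (Ddx3y at 11.5 to 17.7 FPKM) and at most 0.0741 FPKM of Xist.

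The receptors were expressed above their ligands and neither was called. Fgfr1, the main FGF receptor of mesenchyme and myocardium (chr8:25518772-25575714), was 11.2, 11.9, 9.69 and 10.2 FPKM in controls 1 to 4 and 9.62, 9.21, 10.6 and 9.85 FPKM in cKO 1 to 4. Controls 1 and 2, of the first label prefix, were above all cKO libraries, while controls 3 and 4, of the second, lay among them. The log2 difference was -0.12 (95% interval -0.28 to 0.04, adjusted p = 0.229 from limma). It was -0.25 within one label prefix and -0.01 within the other. With array weights, a fit that gives libraries unequal weight, Fgfr1 was called lower (-0.23, adjusted p = 0.00781 from limma). That fit called 6582 of 12629 entries, against 3879 in the main fit.

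Fgfr2 (chr7:130162451-130266808), whose splice forms differ in the ligands they bind and were not told apart here, was 6.12, 6.27, 6.33 and 5.61 FPKM in controls 1 to 4 and 6.13, 6.27, 7.08 and 7.02 FPKM in cKO 1 to 4. cKO 3 and 4 were above all controls and cKO 1 and 2 lay within their range. The log2 difference was 0.11 (95% interval -0.03 to 0.25, adjusted p = 0.202 from limma). Fgfr2 made up 36.2 ± 2.24% of the summed Fgfr1 and Fgfr2 FPKM in controls and 40.3 ± 1.12% in cKO hearts (SD, n = 4 each), with control 3 at 39.5% inside the cKO range.

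Among the Sprouty genes, which encode intracellular inhibitors of receptor tyrosine kinase signalling, Spry1 rose and Spry2 and Spry4 were not called. Spry1 (chr3:37639950-37644599) was 3.70, 4.02, 3.94 and 3.77 FPKM in controls 1 to 4 and 5.10, 5.22, 5.29 and 5.34 FPKM in cKO 1 to 4. The 4 values of each group lay close together and the groups were far apart. The mean went from 3.86 ± 0.148 to 5.24 ± 0.103 FPKM (SD, n = 4 each), a ratio of 1.36 and a log2 difference of 0.40 (standard error 0.05, adjusted p = 0.000489 from limma). It ranked 292 of 12629 entries by p. The difference was 0.39 without cKO 3 (adjusted p = 0.00203 from limma) and 0.36 and 0.41 within the label prefixes, and Spry1 was called in 19 of the 19 alternative fits that tested it.

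Spry2 had the highest level of the 10 genes (chr14:105891947-105896819). It was 19.8, 20.5, 21.9 and 21.6 FPKM in controls 1 to 4 and 21.2, 21.1, 20.7 and 20.8 FPKM in cKO 1 to 4. All cKO values lay within the control range. The log2 difference was 0.00 with a 95% interval of -0.10 to 0.10 (adjusted p = 0.989 from limma).

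Spry4 (chr18:38586265-38601268) was 4.21, 4.11, 3.92 and 4.44 FPKM in controls 1 to 4 and 4.72, 4.31, 4.53 and 4.73 FPKM in cKO 1 to 4. Only cKO 2 fell among the controls. The log2 difference of 0.12 did not pass (95% interval 0.00 to 0.24, adjusted p = 0.122 from limma). With array weights, where 6582 of 12629 entries were called, it did (0.12, adjusted p = 0.0396 from limma). As a description, the summed FPKM of the 3 Sprouty genes was 27.7 to 29.8 in control and 30.5 to 31.0 in cKO libraries, and Spry1 made up 13.3 ± 0.575% of it in controls and 17.0 ± 0.406% in cKO hearts (SD, n = 4 each). The share of Spry1 did not overlap between the groups.

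**Figure D2:**
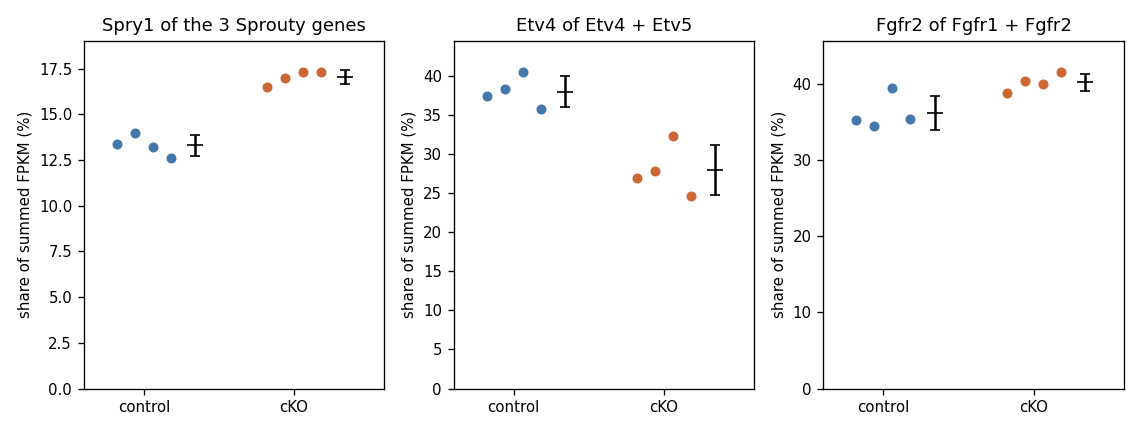
FPKM-based shares within families, in percent (vertical axes), for each of 4 control (blue) and 4 cKO (orange) libraries, 1 dot per library, with the mean and SD of each group. The share of Spry1 among the Sprouty genes was 12.6 to 14.0% in controls and 16.5 to 17.3% in cKO hearts, the share of Etv4 in the sum of Etv4 and Etv5 was 35.8 to 40.5% and 24.7 to 32.3%, and the share of Fgfr2 overlapped between the groups.

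Etv4 and Etv5 encode closely related ETS transcription factors of the Pea3 group, and here Etv4 fell while Etv5 was not called. Etv4 (chr11:101769742-101785310) was 6.95, 7.19, 6.71 and 6.41 FPKM in controls 1 to 4 and 4.42, 3.72, 5.44 and 3.89 FPKM in cKO 1 to 4. The cKO libraries were all lower than the controls and were spread more widely, with cKO 3, the library that held Afp and Alb, nearest to the controls. The mean went from 6.81 ± 0.334 to 4.37 ± 0.774 FPKM (SD, n = 4 each), a fall of 35.9%. The log2 difference of Etv4 was -0.60 (standard error 0.10, adjusted p = 0.00304 from limma). Leaving out cKO 3 made it -0.70 (adjusted p = 0.000705 from limma). The difference was -0.62 and -0.56 within the label prefixes, and with the 5 libraries of one prefix alone it was not called (adjusted p = 0.0773 from limma). The coefficient of variation of Etv4 was 4.90% among controls and 17.7% among cKO libraries, against medians of 8.72% and 5.51% over all entries tested.

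Etv5 (chr16:22381313-22439570) was 11.6, 11.5, 9.84 and 11.5 FPKM in controls 1 to 4 and 12.0, 9.63, 11.4 and 11.9 FPKM in cKO 1 to 4. A single library in each group, control 3 and cKO 2, was lower than the rest and the groups overlapped. The log2 difference was 0.01 (95% interval -0.17 to 0.19, adjusted p = 0.935 from limma). The summed FPKM of Etv4 and Etv5 overlapped between the groups (16.6 to 18.7 in control and 13.4 to 16.8 in cKO libraries).

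Dusp6, which encodes the cytoplasmic phosphatase that inactivates ERK (chr10:99263231-99267489), was 17.8, 16.8, 19.2 and 19.0 FPKM in controls 1 to 4 and 18.3, 18.5, 18.2 and 19.2 FPKM in cKO 1 to 4. The cKO values lay within the control range. The log2 difference was 0.03 (95% interval -0.09 to 0.14, adjusted p = 0.717 from limma). With array weights, where 6582 of 12629 entries were called, Dusp6 was at 0.11 and an adjusted p of 0.0499 from limma.

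**Figure D3:**
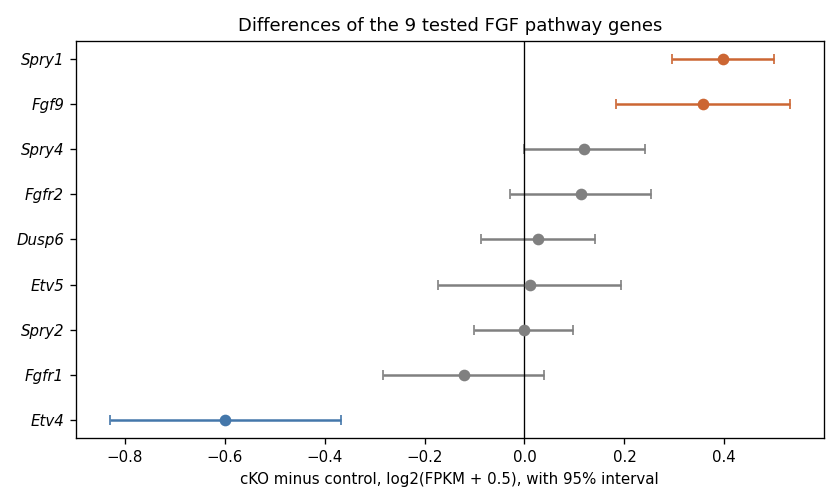
Difference between cKO and control hearts on the log2(FPKM + 0.5) scale (horizontal axis) with its 95% interval for the 9 tested FGF pathway genes, orange where called higher, blue where called lower and grey where not called. Spry1 at 0.40 and Fgf9 at 0.36 lie to the right of 0, Etv4 at -0.60 lies to the left, and the intervals of the other 6 genes reach 0.

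By mean level, the order in control hearts was Spry2, Dusp6, Etv5, Fgfr1, Etv4, Fgfr2, Spry4, Spry1, Fgf9 and Fgf16. Neighbours in this order did not overlap over the 4 libraries except Etv5 with Fgfr1 and Spry4 with Spry1. In cKO hearts Etv4 went from the fifth to the eighth place and Spry1 from the eighth to the sixth. There the ranges of Etv5 and Fgfr1 overlapped, as did those of Etv4 with Spry4 and with Spry1.

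The bases upstream of a gene's start hold part of its promoter, and those of Spry1 and Fgf9, which rose, are shown beside those of Spry2 and Dusp6, which were not called. Windows from the RefSeq promoter table of GRCm38.p6 were scanned for 6 of the 10 genes. Etv4, Fgf16 and Fgfr1 had no entry there, and the scan left out the chromosome of Spry4. Each sequence is the 250 bases before the start, 5′ to 3′ on the gene's strand, and capitals mark GGAA or, for the opposite strand, TTCC, the core bound by ETS factors such as ETV4 and ETV5. They span chr3:37639697-37639946 (plus strand) for Spry1, chr14:58072436-58072685 (plus strand) for Fgf9, chr14:105896820-105897069 (minus strand) for Spry2 and chr10:99262981-99263230 (plus strand) for Dusp6. The starts are those of RefSeq. The GENCODE annotation starts Fgf9 further upstream, at chr14:58070547, so the Fgf9 window lies inside that annotated gene.
Spry1: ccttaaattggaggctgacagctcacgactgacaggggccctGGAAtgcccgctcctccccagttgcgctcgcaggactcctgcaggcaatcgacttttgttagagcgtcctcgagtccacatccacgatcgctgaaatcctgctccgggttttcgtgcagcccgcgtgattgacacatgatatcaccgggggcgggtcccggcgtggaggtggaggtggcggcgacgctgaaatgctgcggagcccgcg
Fgf9: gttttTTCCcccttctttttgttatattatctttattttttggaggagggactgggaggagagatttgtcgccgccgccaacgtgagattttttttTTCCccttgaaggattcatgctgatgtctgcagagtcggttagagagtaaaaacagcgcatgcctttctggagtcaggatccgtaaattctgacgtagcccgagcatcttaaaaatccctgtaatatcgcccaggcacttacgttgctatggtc
Spry2: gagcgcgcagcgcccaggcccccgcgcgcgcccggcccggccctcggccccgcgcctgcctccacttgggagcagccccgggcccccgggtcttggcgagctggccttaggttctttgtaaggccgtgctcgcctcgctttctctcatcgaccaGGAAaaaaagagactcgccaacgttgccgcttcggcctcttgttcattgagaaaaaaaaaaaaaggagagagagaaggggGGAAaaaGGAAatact
Dusp6: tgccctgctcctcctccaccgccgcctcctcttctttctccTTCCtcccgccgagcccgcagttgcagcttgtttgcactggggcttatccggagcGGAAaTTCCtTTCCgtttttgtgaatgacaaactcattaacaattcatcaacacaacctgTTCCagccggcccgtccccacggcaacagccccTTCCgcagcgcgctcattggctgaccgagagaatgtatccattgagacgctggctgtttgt
The core occurred 1 time in the window of Spry1, 2 times in that of Fgf9, 3 times in that of Spry2 and 6 times in that of Dusp6. In windows not shown, of genes that were not called, the core occurred 2 times for Fgfr2 and 0 and 4 times for Etv5. For the Fgfr2 window and the Etv5 window with 4 matches, the 25 bases after the start were in no GENCODE transcript of the gene. It is a frequent word, present in 93.4% of the 32851 windows of this length in the table with a median of 3 matches a window. Longer motifs searched on both strands, CCGGAA (ETS family, which holds the core, in 12.0% of all windows) and TGANTCA (AP-1, in 6.75%), had 0 matches in the windows of the 6 genes. The windows of Spry1 and Spry2 had the same GC content of 62.4%, that of Dusp6 56.4% and that of Fgf9 44.8%.

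The rest of the pathway was read from lists of 94 further genes, of which 69 were tested, and 9 of these were higher and 12 lower in cKO hearts (30.4%, against 30.7% of all entries). Of 16 other secreted ligands, 2 reached the minimum level, Fgf1 and Fgf2, and limma called 0 of them, with 1 at an unadjusted p under 0.05. Fgf1, which has no classical signal peptide, was 5.00 to 5.29 FPKM in control and 4.56 to 4.89 FPKM in cKO libraries, without overlap (log2 difference -0.11, adjusted p = 0.0845 from limma). Of the intracellular FGF homologous factors 2 were tested, Fgf13 at a mean of 14.1 and 13.2 FPKM and Fgf11 at 3.18 and 3.58 FPKM in control and cKO hearts, and 0 were called by limma (0 at an unadjusted p under 0.05). The same counts held for the other receptors, Fgfrl1, a receptor without a kinase domain (19.8 and 18.3 FPKM), and Fgfr3 (3.05 and 3.07 FPKM).

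Of 14 tested extracellular modulators, which act on ligand access to the receptors, 2 were higher, 2 lower and 10 not called (28.6% called, against 30.7% of all entries). Sulf2, an enzyme that removes sulfate groups from heparan sulfate, was 63.4 to 77.3 FPKM in control and 43.7 to 49.0 FPKM in cKO libraries (log2 difference -0.59, adjusted p = 0.000504 from limma), and its relative Sulf1 was not called. Sdc4, a heparan sulfate proteoglycan of the cell surface, rose from a mean of 12.2 to 16.6 FPKM (adjusted p = 0.000504 from limma). Hs6st2, which adds sulfate to heparan sulfate, rose from 13.9 to 17.6 FPKM, and Flrt2, a transmembrane protein that binds FGF receptors, fell from 10.6 to 9.16 FPKM (adjusted p = 0.00238 and 0.0268 from limma). The median of the 14 genes was 0.00 on the log2 scale.

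Of 25 adaptors and kinases between receptor and nucleus, 6 were lower, 2 higher and 17 not called (32% called, against 30.7% of all entries, of which 14.9% were lower and 15.9% higher). The 3 with the smallest adjusted p were all lower: the ERK substrate kinase Rps6ka3 (22.8 to 18.8 FPKM), the ERK gene Mapk3 (45.2 to 38.8 FPKM) and the MEK gene Map2k1 (46.8 to 37.7 FPKM, all means). Their adjusted p from limma were 0.00152, 0.00597 and 0.0117. The 4 cKO libraries were below the 4 controls for each of these genes, which were named for their small p. In the whole list 10 of the 25 genes did not overlap between the groups, against 32.8% of all entries tested. The summed FPKM of the 25 genes was 667 to 683 in control and 638 to 649 in cKO libraries, although their median difference was 0.02 on the log2 scale.

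Feedback genes beyond the 10 were 1 higher and 2 lower of 15 tested (20% called, against 30.7% of all entries). Etv1, the third Pea3 factor, was 6.13, 6.55, 6.36 and 6.27 FPKM in controls 1 to 4 and 4.19, 4.71, 4.89 and 4.85 FPKM in cKO 1 to 4. All cKO libraries were below the controls, and Etv1 fell with a log2 difference of -0.41 (standard error 0.06, adjusted p = 0.00105 from limma). In this list 5 of the 15 genes did not overlap between the groups, against 32.8% of all entries tested. Lrig1, a transmembrane inhibitor of receptor tyrosine kinases, fell from a mean of 10.4 to 8.24 FPKM (adjusted p = 0.000869 from limma). Spred1, a relative of the Sprouty genes, rose from 14.2 to 15.9 FPKM (adjusted p = 0.0462 from limma). Among 10 tested output genes of ERK, 4 were higher and 2 lower (60% called, against 30.7% of all entries). Their median was 0.16 on the log2 scale, against 0.02 over all entries, and the calls went in both directions. Ier3 (12.8 to 18.1 FPKM), Phlda1 (6.73 to 9.15 FPKM) and Myc (7.28 to 8.81 FPKM) rose, with adjusted p of 0.000423, 0.00539 and 0.00803 from limma. Egr1, an immediate early transcription factor, fell from 6.23 to 3.86 FPKM (means, log2 difference -0.62, adjusted p = 0.00208 from limma).

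**Figure D4:**
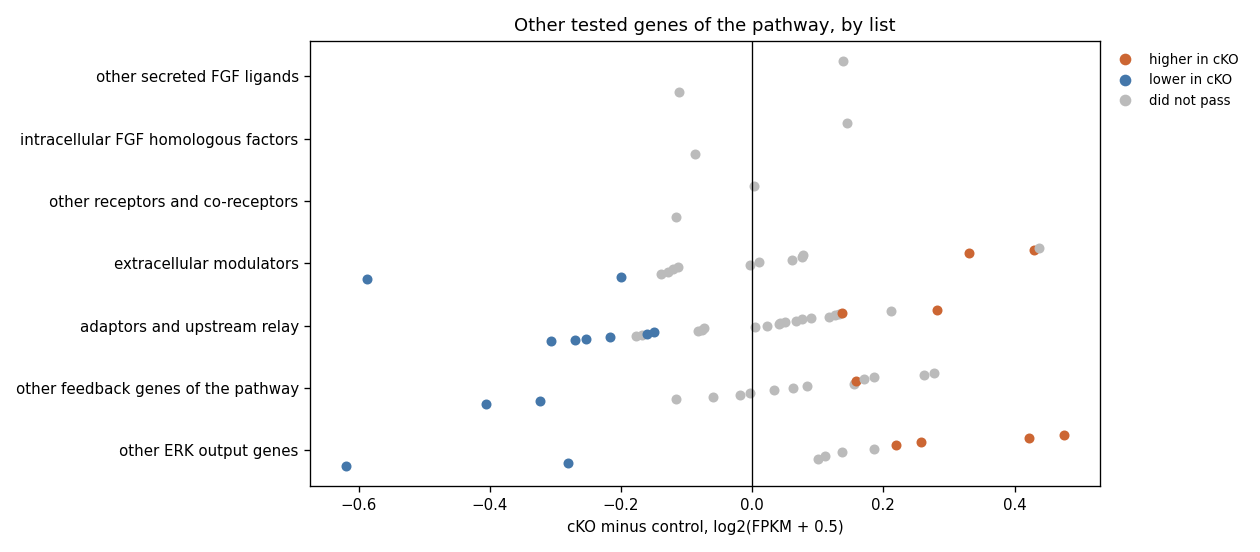
Difference between cKO and control hearts on the log2(FPKM + 0.5) scale (horizontal axis) of the tested genes in 7 lists of the FGF pathway beside the 10 genes, 1 dot per gene, orange where called higher, blue where called lower and grey where not called. The adaptors and kinases held 6 lower and 2 higher genes of 25 and the ERK outputs 4 higher and 2 lower of 10, and the first 3 lists held 0 called genes. Over all entries tested 30.7% were called.

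Among all entries tested, those whose log2 values over the 8 libraries were most like Spry1 by Pearson correlation were Nat8l (r = 0.9942), which makes N-acetylaspartate, and Ckm (r = 0.993), the muscle creatine kinase. For Fgf9 they were Gars (r = 0.9934), the glycyl-tRNA synthetase, and Mpc1 (r = 0.992), a subunit of the mitochondrial pyruvate carrier. For Etv4 they were Asb13 (r = 0.989), a substrate adaptor of ubiquitin ligases, and Grk6 (r = 0.9874), a kinase of G protein-coupled receptors. The 8 points share the division into cKO and control libraries, so these values are a description. Entries alike in this measure differed in the size of their change, since Ckm went from a mean of 4.19 to 39.7 FPKM and Spry1 from 3.86 to 5.24 FPKM.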

How the data were processed

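Poly(A) RNA from whole hearts at embryonic day 11.5 was sequenced after stranded mRNA library preparation, and the study's methods name FastQC, TopHat2 and Bowtie2 for mapping to mm10 and Cuffdiff2 for differential expression. Versions, gene annotation, the program that made the FPKM table and its strand setting are not given in the sources used here, so antisense genes that overlap Fgf9, Fgfr1, Spry1 and Spry4 cannot be told apart from them. For Fgfr2 the GENCODE span runs to chr7:133123350, far past the deposited entry, and overlaps many genes on both strands. Which of those overlap the deposited Fgfr2 entry was not looked at. The FPKM values were deposited by the authors, with a p-value per gene from their own comparison that was not used. Of the cells, 1.32% held a text code, and 23521 of 23846 entries had a number in all 8 libraries.

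The 12629 entries averaging 1 FPKM or more were fitted on log2(FPKM + 0.5) with limma 3.58.1 in R 4.3.3 (4 cKO against 4 control libraries, empirical Bayes with a trend, no covariate), with Benjamini-Hochberg adjustment over all of them. The procedure was tested on simulated data. Read counts were not used here, so precision is given by the spread of 4 libraries, and relative depth came from FPKM steps. The table's positions are those of the deposited entries. Promoters were scanned with Python 3.11.15 and figures drawn with matplotlib 3.10.9.

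The 10 genes and all lists were chosen with earlier results of these data known. The text names all 10 genes; of each further pathway list the called genes of lowest adjusted p (at most 4), or, with no call, the most abundant (at most 2); the 2 entries most correlated with each called gene; and marker genes a result turns on. Entries with date-like symbols were passed over, and the result for 1 gene that the rule names is not given. Genes named against this rule are marked as picked with their values in view. Lists were counted, with no set test. Alternatives were pseudocounts, other or no minimum, scalings, variance models, array weights, the replicate block, the label prefix and leaving out each library.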

Additional observations from a re-analysis of the deposited data

Results flagged for a closer look

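Etv5 in control 3 was 9.84 FPKM, while the other 3 controls were 11.5 to 11.6 FPKM. The gap to the nearest of them was 0.929 of the whole range of the group, which is past Dixon's 95% critical value for 4 samples. It was 1 such value among 20 groups checked (10 genes in control and in cKO hearts), and chance gives about 1 in 20.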

How the results depend on the processing

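Of 20 alternatives, 17 moved neither the count of all genes called nor the counts of FGF pathway genes called by over 1.5 times. With array weights 6582 of 12629 genes were called, against 3879 in the main fit, and 4 of the FGF pathway genes were higher and 2 lower. With the 5 libraries of one label prefix 1465 genes were called, and 1 of the FGF pathway genes was higher (Spry1) and 0 lower by limma, Etv4 at an adjusted p of 0.0773 with fewer samples. With a minimum mean of 5 FPKM 0 were higher, since Fgf9 and Spry1 were then not tested. With no minimum 3643 genes were called, and 3 of the FGF pathway genes were higher, Fgf16 being added. Leaving out 1 library at a time gave 2650 to 4951 genes called, and 2 higher and 1 lower FGF pathway genes in each of the 8 fits. With the replicate block 3443 genes were called, and 2 higher and 1 lower FGF pathway genes. Deviations from the group means correlated at 0.127, 0.158, -0.012 and 0.013 between same-numbered libraries, against -0.123 to 0.102 between the others. Such weak values cannot decide whether the numbers pair the libraries. The median shift over all entries was 0.02 on the log2 scale. Fgf16, at 0 to 8 fragments a library if 1 step is 1 fragment, is limited by depth.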

Other observations

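Of 24 other pathway genes under the minimum level, 6 did not overlap between the groups, and the same 6, all FGF genes, were called in the fit with no minimum. Over the table, 11.1% of the entries under the minimum (and above 0.001 FPKM in at least 1 library) did not overlap. That share leaves out entries at 0.001 FPKM in every library, while the 24 genes include some at that value. With no minimum 15.5% of all entries, of low and high level together, were called. The 6 genes were chosen after their values were seen, so nothing is read from these counts. Fgf7, a mesenchymal ligand of epithelial FGFR2, was 0.379, 0.269, 0.332 and 0.194 FPKM in controls 1 to 4 and 0.716, 1.06, 0.666 and 0.876 FPKM in cKO 1 to 4 (log2 difference 0.74, adjusted p = 0.0076 from limma). Fgf8, a ligand of the outflow tract and its progenitors, was 0.0614 to 0.183 FPKM in control and 0.244 to 0.564 FPKM in cKO libraries (adjusted p = 0.0458 from limma). Fgf12, which binds sodium channels inside the cell, was 0.136 to 0.207 FPKM in control and 0.329 to 0.58 FPKM in cKO libraries (adjusted p = 0.0175 from limma). The other 3 were lower in cKO hearts. Fgf10, a marker of second heart field progenitors, went from a mean of 0.408 to 0.229 FPKM (adjusted p = 0.034 from limma), Fgf14 from 0.167 to 0.0805 FPKM (0.00515) and Fgf5 from 0.24 to 0.16 FPKM (0.0496). At such levels few fragments support each value.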
